A study of Mus musculus with 13 samples.

Results

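Expression of 30 genes of fatty acid oxidation and ketogenesis was followed by RNA-seq in whole mouse livers. The 30 were chosen by name, as enzymes, carriers and regulators of these pathways, and are 30 of the 22048 genes in the deposited table of read counts. All 30 were found through their Ensembl identifiers. All 30 passed the filter on low counts, which left 13831 genes for testing.

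Hepatic stellate cells are the fat- and vitamin A-storing pericytes that line the liver sinusoids, and the study set livers without them beside livers with them. The control group held 6 livers that were not depleted of stellate cells, of which controls 1, 2 and 6 were male and controls 3, 4 and 5 female. The depleted group held 4 livers labelled as emptied of these cells, of which depleted liver 3 was male and depleted livers 1, 2 and 4 female. The third group held 3 livers that kept their stellate cells and were collected 72 h after partial hepatectomy, an operation that takes out some of the organ and is followed by regrowth. Hepatectomised livers 1 and 2 were male and hepatectomised liver 3 female. Strain, genotype, age, feeding, hour of collection, the means of depletion and the share of liver removed are not given in the sources used here, and a sham operation is named for no group. The labels do not say that each library came from a separate animal, so p-values measure the spread between these libraries.

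Fatty acids are coupled to coenzyme A, carried into mitochondria as carnitine esters, and shortened step by step by the enzymes of the beta-oxidation spiral to acetyl-CoA. In liver, acetyl-CoA is turned into the ketone bodies acetoacetate and beta-hydroxybutyrate, which the liver exports during fasting for other organs to burn. Peroxisomes run their own beta-oxidation for very long and branched chains. The nuclear receptor PPAR-alpha, encoded by Ppara, switches on many of these genes in the fasted liver.

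PPAR-alpha binds DNA with its partner RXR at AGGTCANAGGTCA, a direct repeat of the hexamer AGGTCA, and the promoters are shown here because most members fell in depleted livers. RefSeq promoter windows (GRCm38.p6, 250 bases before to 50 bases after a gene's start) were matched by symbol for 26 members, as 28 windows, and for Acaa2, Decr1, Crat and Vnn1 none was matched. The full repeat, searched on both strands, was in none of the 28 windows and in 13 of all 32851 windows, or 0.0396%. At so low a share, 28 windows of any genes would hardly hold a match, so its absence says nothing about the members. Only exact letters within these windows were searched. The single hexamer, also searched on both strands, was in 4 of the 28 windows (14.3%), those of Slc27a2, Acadm, Acadvl and Cpt1a, and in 16.3% of all windows. The members' share was therefore near that of all promoters. A match of letters is a description and not a binding site. The stretches around 3 of the matches are printed 5′ to 3′ on the gene's strand, with the hexamer or its reverse complement TGACCT in capitals. That of Acadm lies at chr3:153944860-153944893 (minus strand), that of Acadvl at chr11:70015483-70015542 (minus strand) and that of Cpt1a at chr19:3323180-3323239 (plus strand).
Acadm: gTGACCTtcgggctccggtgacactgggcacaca
Acadvl: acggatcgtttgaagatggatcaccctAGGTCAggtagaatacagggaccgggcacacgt
Cpt1a: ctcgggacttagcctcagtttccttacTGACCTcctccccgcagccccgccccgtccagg

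Hadha and Hadhb, which encode the alpha and beta subunits of the mitochondrial trifunctional protein, start back to back on chromosome 5. The gap between their annotated genes is 85 bases long, holds no annotated exon, and is shown because both genes fell in depleted livers. It lies at chr5:30155163-30155247 (GRCm38.p6, plus strand).
Gap between Hadha and Hadhb: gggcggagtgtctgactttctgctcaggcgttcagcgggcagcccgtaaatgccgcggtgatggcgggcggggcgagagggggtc

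Libraries held 35360991 to 51008737 counts, at which 3 counts correspond to 0.0588 to 0.0848 CPM (read counts brought to a common library total), for counting error only. The 10 stellate cell markers summed to 199 to 559 CPM in controls and 12.7 to 93.6 CPM in depleted livers, and 9 of the 10 fell. Depleted liver 4 kept the most stellate signal of its group (93.6 CPM, against 12.7 to 27.4 CPM in the other 3). Control 6 and hepatectomised liver 2 stood apart by low markers of Kupffer cells, the resident macrophages (75.3 and 83.2 CPM summed over 8 markers, against 409 to 598 CPM in the other controls), and of sinusoidal endothelium (88.5 and 88.2 CPM summed over 7 markers, against 284 to 409 CPM). The 10 hepatocyte markers were high in every library, at 75134 to 144832 CPM in controls, 70192 to 172877 CPM in depleted and 122723 to 178881 CPM in hepatectomised livers. The defining markers of the labelled tissue were therefore present throughout. Apart from the limit of 3 counts, CPM values carry edgeR's TMM scaling (trimmed mean of M values).

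In control livers most of the members were abundant. Per kilobase of the deposited gene length, mean control levels ran from 0.466 RPKM (CPM per kilobase) for Fgf21, a fasting hormone, to 559 RPKM for Acaa2, the mitochondrial thiolase, with a median of 63.5 RPKM. Of the 30 members, 21 lay above 30 RPKM. After Acaa2 came Slc27a2, a very long chain acyl-CoA synthetase and fatty acid transporter (327 RPKM), Acaa1b, a peroxisomal thiolase (263 RPKM), and the acyl-CoA dehydrogenases Acadvl (168 RPKM) and Acadl (128 RPKM). Ech1 (102 RPKM), Cpt1a (101 RPKM) and Ehhadh (100.4 RPKM) followed within less than the spread between controls. The 6 members under 10 RPKM were Vnn1 (8.81 RPKM), Acot1 (5.34 RPKM), Crat (4.99 RPKM), Acot2 (1.49 RPKM), Pdk4 (1.47 RPKM) and Fgf21. Spread between the 6 controls was smallest for Cpt1a, the gatekeeper of the carnitine shuttle, with a coefficient of variation of 6.38%, and largest for Vnn1, the pantetheinase vanin-1, at 94.5%. The median over the members was 18.2%.

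The first comparison asks how the livers without stellate cells differed from controls. In depleted livers, 21 of the 30 members fell and none rose (edgeR, adjusted p under 0.05 over all 13831 genes), so that 70.0% of the members were called, against 33.9% of all genes tested. In the downward direction alone, 15.0% of all genes were called. The median log2 fold change of the members was -0.89, or 1.85-fold lower, beside -0.03 over all genes tested. At an unadjusted p under 0.05, 22 members were lower and 0 were higher, against 20.8% of all genes lower, and DESeq2 and limma-voom called 22 and 21 lower and 0 higher. In 19 of the 30, every depleted liver lay below every control, as did 11.9% of all genes tested. Together the 30 genes took 0.763% to 0.900% of all counts in controls and 0.387% to 0.525% in depleted livers, and these ranges did not overlap. In bulk tissue, fewer cells of a type and less RNA per cell cannot be told apart.

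Large and small falls stood side by side. Of the 21 members that fell, 8 fell by at least 2-fold, and the others fell by less. The 9 that did not pass the test were Slc25a20, Acadm, Slc27a2, Pex11a, Fgf21, Pdk4, Acot2, Crat and Vnn1. The count stayed at 21, with the same 21 genes, when control 6 and depleted liver 4 were left out together.

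**Figure D1:**
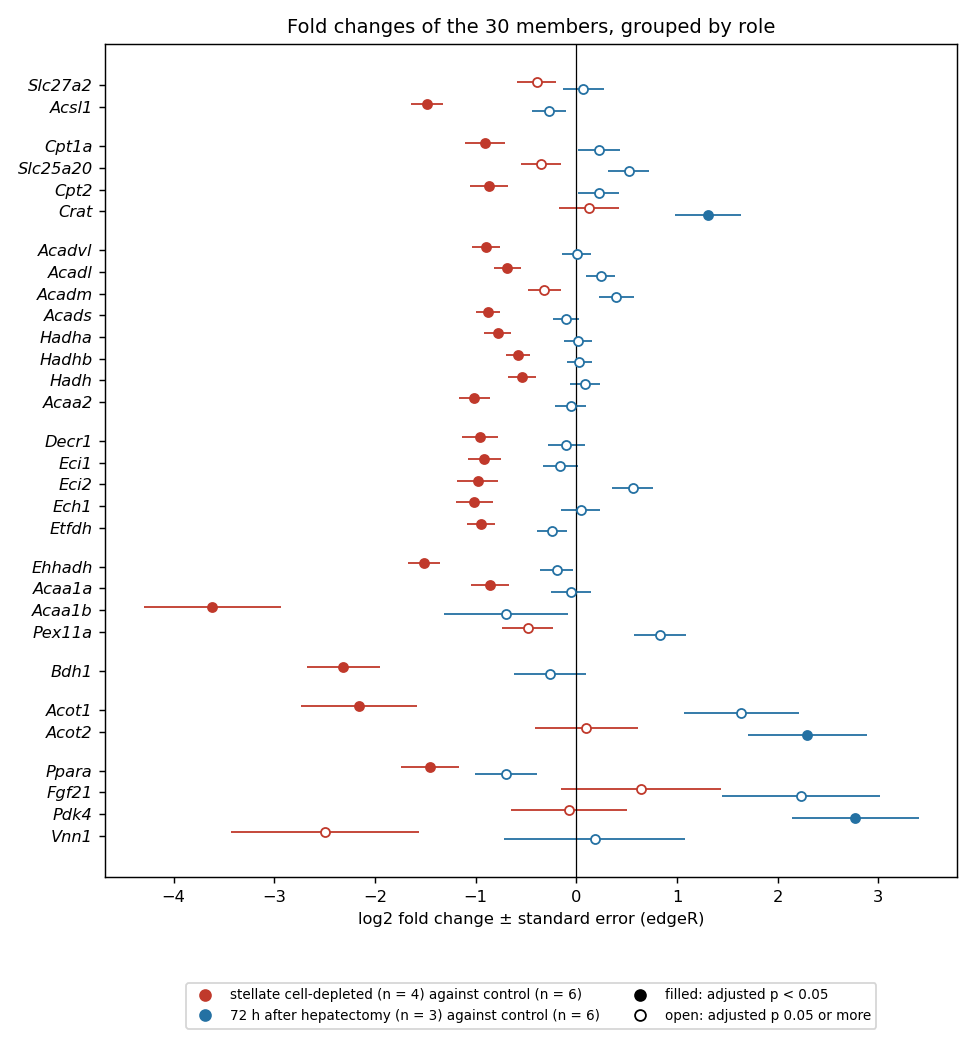
Log2 fold change of each of the 30 members (points) with its standard error (lines), for stellate cell-depleted livers and for livers 72 h after hepatectomy, each against the same 6 controls; filled points passed an adjusted p of 0.05. Red points lie left of 0 for 27 of 30 members, from -3.62 (Acaa1b) to 0.64 (Fgf21), while blue points lie on both sides and 3 are filled.

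Of the 2 genes of fatty acid uptake and activation, 1 fell. Acsl1, the main long-chain acyl-CoA synthetase of liver, stood at 739.7 to 1088 CPM in controls (median 835) and at 264, 334, 355 and 281 CPM in depleted livers 1 to 4. Every depleted liver was below every control, and the log2 fold change was -1.48 ± 0.16 (standard error), 2.80-fold lower (edgeR adjusted p = 2.75e-05). Slc27a2 stood at 783 to 1012 CPM in depleted livers and 937 to 1461 CPM in controls. These ranges overlapped, and its log2 fold change of -0.39 ± 0.20 did not pass the test (adjusted p = 0.142).

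Of the 4 genes of the carnitine shuttle, 2 fell. Cpt1a, which makes the acylcarnitines at the outer mitochondrial membrane and is the rate-controlling step of oxidation, stood at 408 to 478 CPM in controls (median 424) and at 195, 215, 295 and 212 CPM in depleted livers 1 to 4. The controls lay close together and all 4 depleted livers lay below them, with a log2 fold change of -0.91 ± 0.20 (edgeR adjusted p = 0.00352). Cpt2, which returns the acyl group to coenzyme A inside the mitochondrion, differed by -0.87 ± 0.19 (adjusted p = 0.00344), again without overlap. Slc25a20, the carrier between them, stood at 72.8 to 132 CPM in controls (median 78.1) and 43.1, 63.5, 73.0 and 81.2 CPM in depleted livers 1 to 4, with overlapping ranges and a log2 fold change of -0.35 ± 0.20 (adjusted p = 0.193). Its highest control was control 6. Crat, the acetyl-group counterpart of the shuttle, differed by 0.13 ± 0.30 (adjusted p = 0.782).

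Of the 8 genes of the mitochondrial spiral, 7 fell, with log2 fold changes from -1.01 (Acaa2) to -0.54 (Hadh). Acaa2, the thiolase of the last step, stood at 723 to 1050.5 CPM in controls (median 806) and at 327, 467, 395 and 448 CPM in depleted livers 1 to 4. All depleted livers lay below all controls, and the log2 fold change was -1.01 ± 0.15 (edgeR adjusted p = 0.000265). Acadvl, the very long chain acyl-CoA dehydrogenase of the first step, stood at 372 to 558 CPM in controls (median 445) and at 203, 217, 254 and 272 CPM in depleted livers 1 to 4, and differed by -0.90 ± 0.14 (adjusted p = 0.000326). Acads, its short-chain counterpart, stood at 137 to 194 CPM in controls (median 172) and at 78.5, 90.6, 97.3 and 93.8 CPM in depleted livers 1 to 4, and differed by -0.88 ± 0.12 (adjusted p = 0.000165). Neither gene's groups overlapped. Acadvl shares 42.9% of its annotated length with Dvl2 on the opposite strand, which had a mean of 8.09 CPM in controls against 452 CPM for Acadvl.

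The subunits of the trifunctional protein, which runs the middle and last steps for long chains, fell together. Hadha stood at 277 to 378 CPM in controls (median 329.6) and at 176, 187, 202 and 184 CPM in depleted livers 1 to 4, and differed by -0.78 ± 0.13 (edgeR adjusted p = 0.000646). Hadhb, its neighbour across the printed gap, stood at 72.6 to 88.0 CPM in controls and 46.0 to 56.2 CPM in depleted livers, and differed by -0.58 ± 0.12 (adjusted p = 0.00211). In both genes the groups did not overlap. Acadl, the long-chain dehydrogenase, fell by 0.69 on the log2 scale, and Hadh, the short-chain hydroxyacyl-CoA dehydrogenase, by 0.54. The call of Hadh (adjusted p = 0.00910) was lost when the replicate number was a block (-0.46, adjusted p = 0.0598) and among female libraries alone (-0.58, 0.0599). The exception among the dehydrogenases was Acadm, which acts on medium chains, at 239.6 to 330.4 CPM in controls (median 287) and 203, 249.6, 281 and 179 CPM in depleted livers 1 to 4. Its ranges overlapped and its log2 fold change was -0.32 ± 0.16 (adjusted p = 0.152).

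All 5 auxiliary and electron transfer genes fell, by between 0.91 and 1.01 on the log2 scale, and in none of the 5 did the groups overlap. Unsaturated fatty acids need these isomerases and reductases before they can pass the spiral. Decr1, the dienoyl-CoA reductase, stood at 182 to 293 CPM in controls (median 201) and at 84.1, 99.8, 108 and 131 CPM in depleted livers 1 to 4, with control 6 highest. Eci1, an enoyl-CoA isomerase of mitochondria, stood at 71.7 to 108 CPM in controls (median 86.9) and at 30.6, 50.6, 51.5 and 48.1 CPM in depleted livers 1 to 4, with depleted liver 1 lowest. Their log2 fold changes were -0.96 ± 0.18 (edgeR adjusted p = 0.00116) and -0.91 ± 0.16 (adjusted p = 0.000925), and neither call was lost in any alternative tried. Eci2, a second enoyl-CoA isomerase, stood at 166 to 260.1 CPM in controls (median 183) and at 77.0, 102, 106 and 112 CPM in depleted livers 1 to 4, and differed by -0.98 ± 0.20 (adjusted p = 0.00225). Ech1, a dienoyl-CoA isomerase, stood at 185 to 295 CPM in controls (median 227) and at 74.4, 111, 147 and 118 CPM in depleted livers 1 to 4, and differed by -1.01 ± 0.18 (adjusted p = 0.000971). Etfdh passes the electrons of the dehydrogenases to the respiratory chain. It stood at 259.7 to 319 CPM in controls (median 289) and at 147, 176, 171 and 116 CPM in depleted livers 1 to 4, and differed by -0.95 ± 0.14 (adjusted p = 0.000242).

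Of the 4 peroxisomal genes, 3 fell. Ehhadh, the bifunctional enzyme of the peroxisomal pathway, stood at 178 to 441 CPM in controls (median 305) and at 119.7, 144, 84.1 and 133 CPM in depleted livers 1 to 4. All depleted livers lay below all controls, and the log2 fold change was -1.51 ± 0.16, 2.86-fold lower (edgeR adjusted p = 2.37e-05). Acaa1b and Acaa1a are near-identical peroxisomal thiolases (96.0% identity over 1450 aligned transcript bases), so the split of reads between them is uncertain. Acaa1b stood at 302 to 695 CPM in controls (median 516) and at 16.99, 32.7, 14.5 and 139.9 CPM in depleted livers 1 to 4. Depleted liver 4 was far above the other 3 and still below every control, and the log2 fold change was -3.62 ± 0.68, 12.3-fold lower (adjusted p = 0.00147), or -4.69 without depleted liver 4 and -2.86 among female libraries alone. Acaa1a stood at 136 to 265 CPM in controls (median 199) and at 86.5, 97.3, 117 and 115 CPM in depleted livers 1 to 4, and differed by -0.86 ± 0.19 (adjusted p = 0.00379). Pex11a, which acts in peroxisome division, stood at 42.0 to 95.7 CPM in controls (median 55.1) and at 31.2, 36.7, 54.0 and 45.6 CPM in depleted livers 1 to 4, and its change of -0.48 ± 0.26 did not pass the test (adjusted p = 0.167).

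The log2 fold change of the ketone body enzyme among the members was larger than any in the spiral, a difference that was not tested. Bdh1, which reduces acetoacetate to beta-hydroxybutyrate, stood at 279 to 408 CPM in controls (median 321) and at 55.0, 29.9, 64.9 and 131 CPM in depleted livers 1 to 4. The highest depleted liver was again liver 4, and it lay below every control. The log2 fold change was -2.32 ± 0.36, 4.98-fold lower (edgeR adjusted p = 0.000413).

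**Figure D2:**
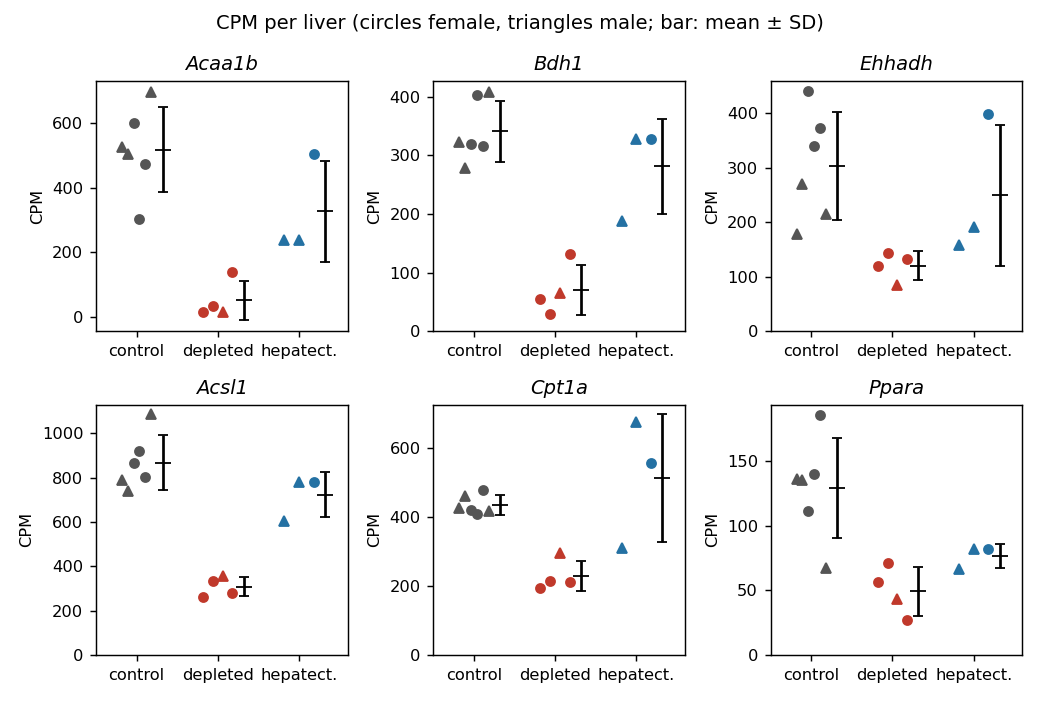
Level in CPM of 6 members in each liver (points, circles female and triangles male), with the mean and SD of each group (bars beside the points; n = 6, 4 and 3). In Acaa1b, Bdh1, Ehhadh, Acsl1 and Cpt1a the depleted livers lie below all controls, and in Ppara control 6 (67.2 CPM) lies within the depleted range.

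Of the 2 acyl-CoA thioesterases, which free fatty acids from coenzyme A, Acot1 fell and Acot2 did not pass the test. The cytosolic Acot1 stood at 2.67 to 20.9 CPM in controls (median 6.67) and at 1.22, 0.918, 2.81 and 2.38 CPM in depleted livers 1 to 4. Control 4 was the highest, and the lowest control (2.67 CPM) lay just under depleted liver 3, so the groups overlapped. The log2 fold change was -2.16 ± 0.58 (edgeR adjusted p = 0.0119), or -2.78 without depleted liver 3 and -2.92 among female libraries alone. The mitochondrial Acot2 stood at 1.07 to 6.47 CPM in controls (median 2.88) and at 3.77, 3.79, 2.99 and 3.76 CPM in depleted livers 1 to 4, with a log2 fold change of 0.10 ± 0.51 (adjusted p = 0.905). Both are short of reads for a liver gene and share 94.3% identity over 1330 aligned bases, which leaves the split of their reads uncertain.

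Of the 4 regulators, signals and PPAR-alpha targets, Ppara fell. It stood at 67.2 to 186 CPM in controls (median 136) and at 56.4, 71.5, 43.3 and 26.7 CPM in depleted livers 1 to 4. Control 6 was lowest among the controls and lay under depleted liver 2, so the groups overlapped. The log2 fold change was -1.45 ± 0.29, 2.74-fold lower (edgeR adjusted p = 0.00190). Pdk4, the kinase that shuts pyruvate out of the mitochondrial fuel supply, stood at 1.90 to 10.7 CPM in controls (median 4.54) and at 4.80, 3.67, 9.87 and 1.63 CPM in depleted livers 1 to 4, with a log2 fold change of -0.07 ± 0.58 (adjusted p = 0.936), whose sign turned in several alternatives. Fgf21 stood at 0.0702 to 1.14 CPM in controls (median 0.286) and at 0.321, 0.0448, 0.559 and 1.36 CPM in depleted livers 1 to 4, with depleted liver 2 under the limit that 3 counts set, and differed by 0.64 ± 0.80 (adjusted p = 0.576). Its sign turned without depleted liver 4 (-0.38). Vnn1 stood at 0.911 to 52.6 CPM in controls (median 19.8) and at 6.41, 5.62, 2.53 and 3.68 CPM in depleted livers 1 to 4. Its ranges overlapped, and its change of -2.50 ± 0.93 missed the threshold in edgeR (adjusted p = 0.0577) and in limma-voom (-1.75, adjusted p = 0.227) and passed it in DESeq2 (adjusted p = 0.0192). In edgeR it also passed without control 1 (-2.68, adjusted p = 0.0247) or control 5 (-2.81, adjusted p = 0.0252), the lowest controls.

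The other genes of the pathway were read from a list of 75, of which 74 were tested. In depleted livers 36 of the 74 fell and 4 rose, against 15.0% of all genes lower and 18.9% higher, with a median log2 fold change of -0.60. Among female libraries alone the 40 calls became 18. The largest changes past the threshold were those of Fabp1, the liver fatty acid binding protein (-3.15 ± 0.81, edgeR adjusted p = 0.00984), and of the clock repressor Nr1d1 (-2.88 ± 0.51, adjusted p = 0.00104). Acat1 and Oxct1 were chosen for naming after their values were seen. Acat1, the mitochondrial acetoacetyl-CoA thiolase, fell (-1.02 ± 0.18, adjusted p = 0.000724). Oxct1, which lets tissues other than liver burn ketone bodies, rose, from 5.19 CPM on average in controls to 25.3 CPM in depleted livers (2.29 ± 0.22, adjusted p = 1.34e-05).

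Of 20 genes of the tricarboxylic acid cycle and its entry, 12 fell in depleted livers, against 15.0% of all genes, with a median of -0.45, led by Idh3b (-0.94 ± 0.10) and Suclg1 (-0.85 ± 0.13). This count was 7 without depleted liver 3 and 6 among female libraries alone. The 10 hepatocyte markers had a median of -0.19. None of them was called by edgeR, DESeq2 or limma-voom, and 1 of the 10 had an unadjusted p under 0.05.

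Markers of immune cells moved with the group in the same libraries. The 8 monocyte and neutrophil markers summed to 3.15 to 13.6 CPM in controls and 205 to 354 CPM in depleted livers, and 8 of 8 rose. The 8 Kupffer markers summed to 75.3 to 598 CPM and 953 to 2102 CPM, and 5 of 8 rose. T and NK cell markers rose in 7 of 7 tested (2.79 to 5.22 CPM, and 63.7 to 159 CPM) and B cell markers in 4 of 4 (2.52 to 5.31 CPM, and 18.7 to 31.3 CPM). Their part in the fall of the members was not tested.

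Acute phase genes, a list of genes that respond to inflammation, rose in 16 of 20, against 18.9% of all genes higher, with a median log2 fold change of 1.83. Which cells of the bulk tissue made them was not tested. Of 16 clock genes, 3 fell, led by Nr1d1 and by Npas2 (-2.13 ± 0.63, adjusted p = 0.0199), a share near the 15.0% of all genes that were lower. Fatty acid oxidation follows the time of day and feeding, and neither is given in the sources used here. Their part in the result was not tested.

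**Figure D3:**
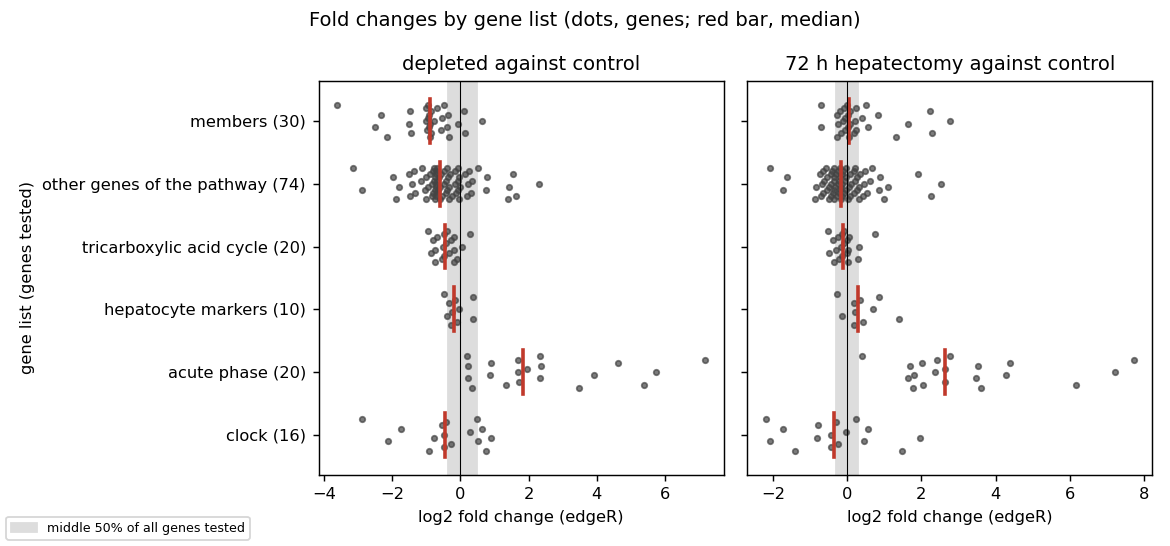
Log2 fold changes of the members and of 5 other gene lists (dots, genes; red bars, list medians; grey band, the middle 50% of all genes tested), for depleted livers on the left and livers 72 h after hepatectomy on the right. In depleted livers the medians are -0.89 for the members, -0.60 for the other pathway genes, -0.45 for the tricarboxylic acid cycle and 1.83 for the acute phase genes, and after hepatectomy they are 0.06, -0.16, -0.12 and 2.64.

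The second comparison concerned regrowing livers, 72 h after surgery, and used the same 6 controls. Here 3 of the 30 members rose (Pdk4, Crat and Acot2) and none fell, against 8.42% of all genes tested, with 6.06% higher and 2.36% lower. The members' share was near that background. The median log2 fold change was 0.06, beside -0.02 over all genes. At an unadjusted p under 0.05, 9 members were higher and 1 was lower, against 24.3% of all genes in either direction and 13.3% higher. In 4 members every hepatectomised liver lay above every control, as did 7.41% of all genes. With the replicate number as a block, 1 member was called, Fgf21 (log2 fold change 3.25, adjusted p = 0.0213), and none of the 3 above. DESeq2 called 6 members.

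Pdk4 stood at 1.90 to 10.7 CPM in controls and at 14.7, 71.0 and 26.99 CPM in hepatectomised livers 1 to 3. Every hepatectomised liver lay above every control, with liver 2 far above the others, and the log2 fold change was 2.77 ± 0.63, 6.82-fold higher (edgeR adjusted p = 0.0201). Crat, whose product trades acetyl groups between coenzyme A and carnitine, stood at 15.6 to 35.4 CPM in controls (median 27.3) and at 80.9, 93.1 and 37.6 CPM in hepatectomised livers 1 to 3. Liver 3 lay just above the highest control, and the log2 fold change was 1.31 ± 0.33, 2.48-fold higher (adjusted p = 0.0307). Acot2 stood at 1.07 to 6.47 CPM in controls and at 2.94, 24.1 and 8.75 CPM in hepatectomised livers 1 to 3. Liver 1 lay within the controls and liver 2 far above them, and the log2 fold change was 2.29 ± 0.59, 4.90-fold higher (adjusted p = 0.0326).

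Leaving out 1 library often ended these calls. Without hepatectomised liver 2, or without control 2, no member was called, and 1 was called without control 1 or without control 5. Without hepatectomised liver 2 the log2 fold change of Pdk4 was 2.01, that of Crat 1.10 and that of Acot2 0.87. The call of Pdk4 was also lost without control 2 (2.78, adjusted p = 0.0502) or hepatectomised liver 3 (2.99, adjusted p = 0.0535), where its fold change was no smaller. That of Crat was also lost without control 1, 2, 5 or 6 or hepatectomised liver 1, with log2 fold changes of 1.10 to 1.37 and adjusted p from 0.0506 to 0.0829. That of Acot2 was also lost without any control other than control 4, with log2 fold changes of 2.04 to 2.34 and adjusted p from 0.0501 to 0.0857. The call of Acot2 was also lost with limma-voom (log2 fold change 1.56, adjusted p = 0.0805) and without the sex term (1.87, 0.0617). With only the libraries of these groups it was lost at 2.42 (adjusted p = 0.0684). Liver 2 was also the library of its group with the low Kupffer and endothelial markers, whose part in the result was not tested. Monocyte and neutrophil markers summed to 23.6 to 39.8 CPM after hepatectomy, against 3.15 to 13.6 CPM in controls, and 4 of 8 rose. The 4 skeletal muscle markers, from a tissue that also makes Pdk4 and Crat, summed to 4.73 CPM in hepatectomised liver 1 and to 0.0281 and 0.0249 CPM in livers 2 and 3, against at most 0.0236 CPM in controls. Adipocyte markers summed to 0.353, 3.28 and 4.49 CPM in hepatectomised livers 1 to 3, against at most 1.51 CPM in controls. Those of cholangiocytes, the cells of the bile ducts, summed to 12.3 to 18.2 CPM, against 4.68 to 6.41 CPM in controls, and 2 of the 4 tested rose. The part of these cell types in the result was not tested.

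Several members lay higher without passing the test by edgeR, and some passed in other settings. Fgf21 stood at 0.0702 to 1.14 CPM in controls and at 2.59, 2.39 and 1.50 CPM in hepatectomised livers 1 to 3. All 3 lay above all controls at these low levels, and the log2 fold change was 2.23 ± 0.79 (edgeR adjusted p = 0.101). Its adjusted p was 0.0489 with DESeq2 and 0.0467 with limma-voom, beside the value with the replicate block above. Acot1 stood at 2.67 to 20.9 CPM in controls and at 13.1, 33.8 and 25.4 CPM in hepatectomised livers 1 to 3, and differed by 1.64 ± 0.57 (adjusted p = 0.0996). Its adjusted p was 0.0263 with DESeq2, 0.0331 with limma-voom and 0.0180 without control 4. Pex11a stood at 77.5, 110.1 and 141 CPM in hepatectomised livers 1 to 3, against 42.0 to 95.7 CPM in controls, and differed by 0.83 ± 0.26 (adjusted p = 0.0701), with 0.0301 by DESeq2, 0.0397 without control 6 and 0.0294 without hepatectomised liver 1. Eci2 stood at 211, 331 and 354 CPM in hepatectomised livers 1 to 3, against 166 to 260.1 CPM in controls, and differed by 0.56 ± 0.20 (adjusted p = 0.110), with 0.0308 without hepatectomised liver 1. In Acot1, Pex11a and Eci2 liver 1 lay within the control range and livers 2 and 3 above it.

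**Figure D4:**
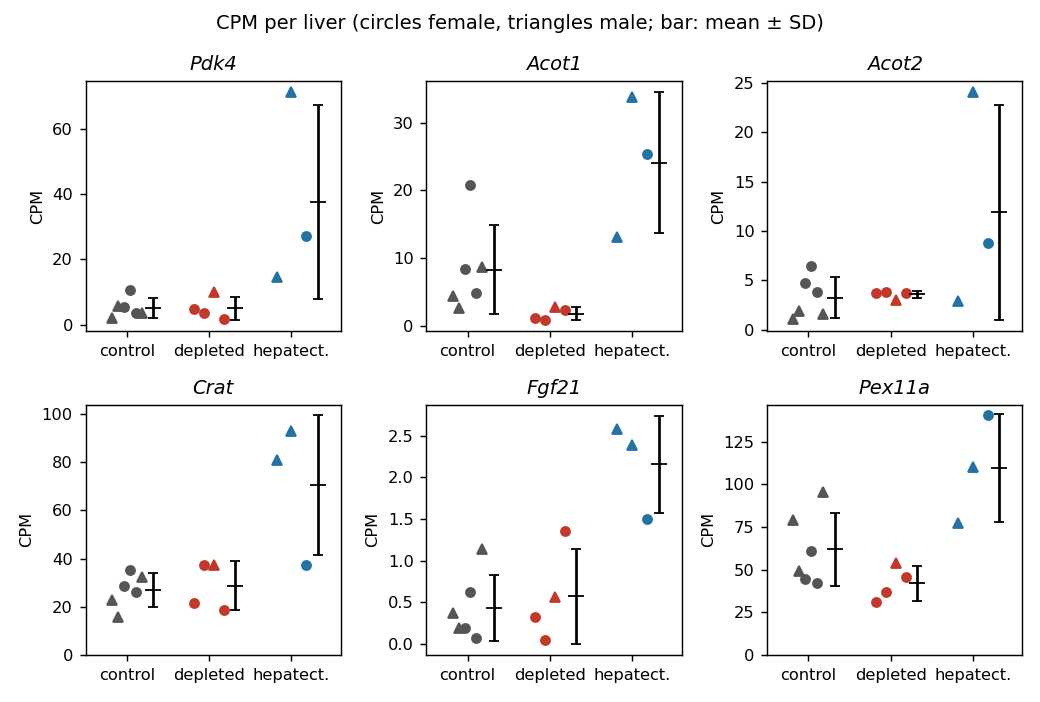
Level in CPM of 6 members in each liver (points, circles female and triangles male), with the mean and SD of each group (bars beside the points; n = 6, 4 and 3). In Pdk4, Crat and Fgf21 the 3 hepatectomised livers lie above all controls, and in Acot2 and Pex11a hepatectomised liver 1 lies within the control range.

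The enzymes of the spiral stayed near their control levels at 72 h, without a test that they were equal. The 8 log2 fold changes ran from -0.10 (Acads) to 0.40 (Acadm), and Acadm was the only one with all hepatectomised livers above all controls, at 339, 460.4 and 349 CPM in hepatectomised livers 1 to 3. Cpt1a stood at 311, 675 and 558 CPM in hepatectomised livers 1 to 3. Liver 1 lay below all controls and livers 2 and 3 above them, so that the log2 fold change of 0.23 ± 0.21 (edgeR adjusted p = 0.539) averaged values on both sides. Bdh1 stood at 187, 328 and 328 CPM in hepatectomised livers 1 to 3, with liver 1 below all controls, and differed by -0.26 ± 0.36 (adjusted p = 0.703). Ppara stood at 66.3, 82.0 and 82.1 CPM in hepatectomised livers 1 to 3, all under every control other than control 6, and differed by -0.70 ± 0.31 (adjusted p = 0.186). Of the other pathway genes, 5 of 74 fell and 2 rose, against 2.36% of all genes tested lower and 6.06% higher. These 7 calls became 2 without control 2 or without hepatectomised liver 2, 3 without control 1 or without hepatectomised liver 1, and 4 without control 3 or without control 6, and library size alone gave 21 and DESeq2 15. By edgeR, the called genes with the largest changes were Lpin1, a coactivator and phosphatidate phosphatase (2.25 ± 0.56, adjusted p = 0.0288), and the coactivator Ppargc1b (-1.61 ± 0.46, adjusted p = 0.0483). Acute phase genes rose in 19 of 20, against 6.06% of all genes higher.

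Depleted and hepatectomised livers shared the 6 controls in the comparisons above, so their values were set against each other directly. Depleted livers were lower in 26 of the 30 members and higher in none, or 86.7%, against 23.4% of all genes tested and 10.1% in the downward direction. All 30 log2 fold changes were negative, with a median of -1.01, and in 26 members every depleted liver lay below every hepatectomised liver, as did 15.9% of all genes. The members that did not pass were Ppara, Fgf21, Slc27a2 and Vnn1. Scaling by library size alone gave 14 calls and moved the median of all genes to 0.27 in this comparison.

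Cell markers moved with this comparison too. The 10 hepatocyte markers were all lower in depleted than in hepatectomised livers, with a median log2 difference of -0.50, or -0.18 with library size alone, and 7386 of the 13831 genes tested were lower. By edgeR none of the 10 was called, 5 had an unadjusted p under 0.05, beside 4989 of all genes, and DESeq2 called 2 and limma-voom 1. Monocyte and neutrophil markers passed the test as higher in depleted livers in 8 of 8 (205 to 354 CPM summed, against 23.6 to 39.8 CPM after hepatectomy), T and NK cell markers in 7 of 7 (63.7 to 159 CPM, against 3.87 to 5.97 CPM) and B cell markers in 4 of 4 (18.7 to 31.3 CPM, against 0.758 to 4.24 CPM). Of the 8 Kupffer markers, 2 passed as higher (953 to 2102 CPM summed, against 83.2 to 825 CPM), and 2 lay lower without passing. Of the 10 stellate markers, 9 passed as lower. The part of these cell types in the lower levels of the members was not tested.

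The 2 thioesterases had log2 differences of -3.80 ± 0.67 for Acot1 (edgeR adjusted p = 0.00196) and -2.20 ± 0.66 for Acot2 (adjusted p = 0.0301). Acaa1b (-2.91 ± 0.70, adjusted p = 0.0107), Pdk4 (-2.85 ± 0.70, adjusted p = 0.0123) and Bdh1 (-2.05 ± 0.40, adjusted p = 0.00332) also differed by more than 2 on the log2 scale. Single libraries set the size of several of these. Without hepatectomised liver 2, the difference was -0.79 for Acot2 (adjusted p = 0.172). The call of Acot2 was also lost without depleted liver 1 (-2.16, adjusted p = 0.0624), 2 (-2.16, 0.0577) or 3 (-2.54, 0.0725). The same held with the replicate block (-1.80, adjusted p = 0.0932), limma-voom (-1.51, 0.0725) or library size alone (-1.89, 0.0562). It held too without the sex term (-1.74, adjusted p = 0.0622) and with only the libraries of these groups (-1.68, 0.159). Without hepatectomised liver 2 the difference of Pdk4 was -2.05 (adjusted p = 0.0576). Without depleted liver 3 it was -4.58 for Acot1 and -3.78 for Pdk4. For Acaa1b it was -4.00 without depleted liver 4, and the call was lost without hepatectomised liver 3 (-2.52, adjusted p = 0.0906). The 4 carnitine shuttle genes, 2 of which did not pass the test in depleted livers against controls, were all lower than after hepatectomy, by 0.87 to 1.18 on the log2 scale. Of these calls, that of Crat was lost with the replicate block, with library size alone (adjusted p = 0.0976) and with only the libraries of these groups. It was also lost without depleted liver 1, 3 or 4 or hepatectomised liver 1 or 2. In all of these fits the difference of Crat ran from -1.37 to -0.87, beside -1.18 in the fit above. The call of Slc25a20 was lost with library size alone (-0.55, adjusted p = 0.120). It was also lost without depleted liver 3 (-0.83) or hepatectomised liver 2 (-0.76) or 3 (-0.83). The genes of the spiral were all lower too, by 0.61 to 0.96. Without hepatectomised liver 2 the calls of Acadm and Hadh were lost, without depleted liver 3 that of Hadh, and with only the libraries of these groups those of Acadm and Hadhb. Library size alone ended 5 of the 8, those of Acadm, Acads, Hadha, Hadhb and Hadh, with adjusted p from 0.0532 to 0.174. Ppara differed by -0.76 ± 0.33 (adjusted p = 0.120), with overlapping ranges.

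Sex was compared within the controls, 3 male against 3 female livers. By edgeR none of the 30 members differed, beside 0.738% of the 13005 genes tested there (0.384% higher and 0.354% lower in males), and 5 had an unadjusted p under 0.05, against 13.2% of all genes. DESeq2 called 2, both lower in males, namely Acot2 (log2 fold change -1.73) and Ehhadh (-0.80). In Ehhadh the male controls stood at 178, 270.1 and 216 CPM and the female controls at 441, 339 and 373 CPM, and the sexes did not overlap. The one male depleted liver, liver 3, was the lowest of its group at 84.1 CPM, and the one female hepatectomised liver, liver 3, the highest of its group at 398 CPM. The fits above carry sex as a term, and the fall in depleted livers was called in 20 members among female libraries alone.

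The members were also ranked across libraries, beside all genes tested. Hepatectomised liver 1 was the lowest of its group in 26 of the 30 members, against 29.3% of all genes, and liver 2 the highest in 17, against 35.8%. Control 6 was the highest control in 14 members, against 26.3% of all genes, and depleted liver 1 the lowest depleted liver in 16, against 21.4%. Each depleted liver lay below all controls in 21 to 25 of the 30 members, against 26.7% to 28.6% of all genes. Hepatectomised liver 1 did so in 10, liver 2 in 2 and liver 3 in none, against 21.4%, 23.6% and 18.6% of all genes.

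**Figure D5:**
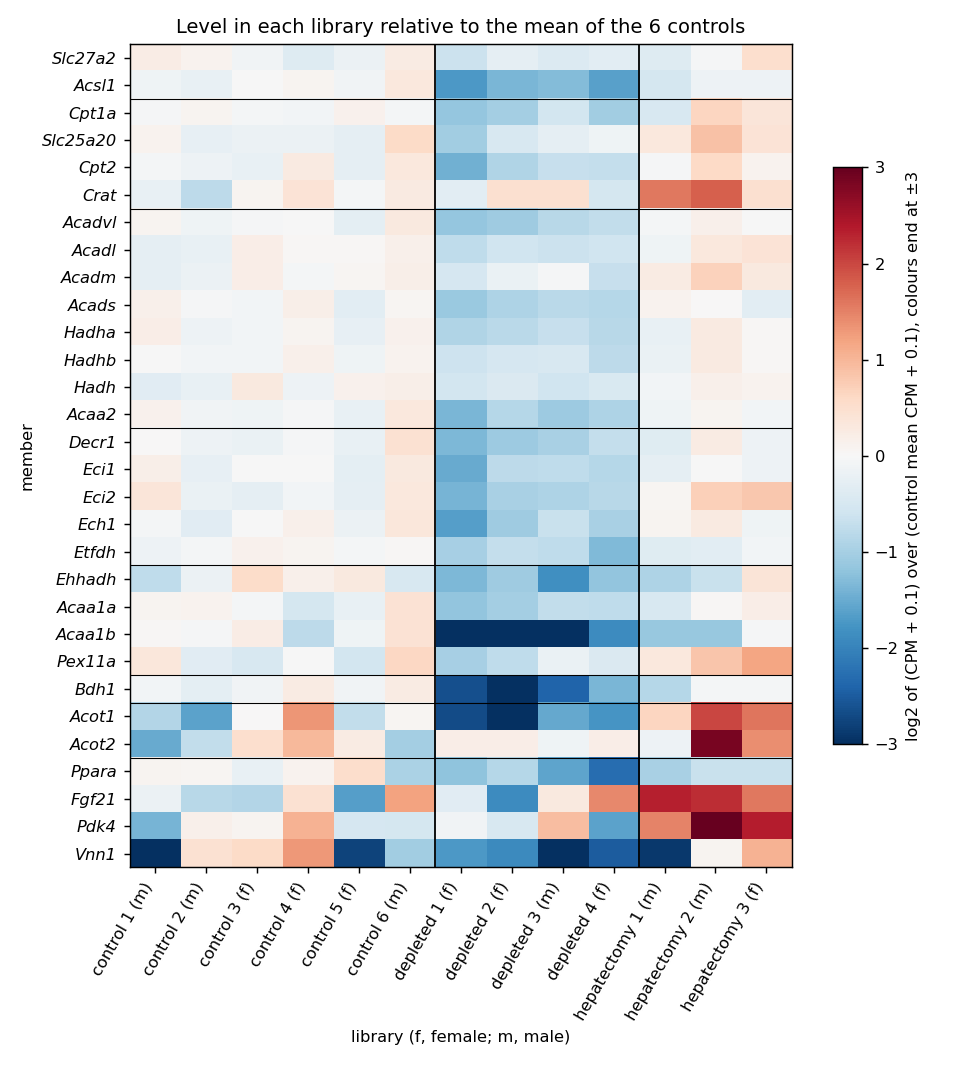
Level of each of the 30 members (rows, grouped by role) in each of the 13 libraries (columns), as the log2 ratio of CPM plus 0.1 to the mean of the 6 controls plus 0.1; colours end at 3 in either direction. The 4 depleted livers are blue in most rows, with 21 to 25 members each below all controls, and the hepatectomised livers differ from one another, with liver 1 lowest in 26 members.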

How the data were processed

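The authors deposited 1 table of raw read counts per gene for 13 whole-liver libraries, with a gene length, which served for RPKM. Per the labels' protocols, RNA came from TRIzol and libraries from the TruSeq stranded mRNA kit with 500 ng of RNA. The submitters' processing notes name STAR 2.7.1a, SAMtools 1.15.1, featureCounts 1.6.4 and the build mm10. Strand and multi-mapping options are not given in the sources used here, so reads of near-identical copies and of genes on opposite strands are uncertain. Symbols came from GENCODE M21, which matched 21818 of the 22048 identifiers.

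Groups, sex and replicate numbers came from the labels. Counts were fitted with edgeR 4.0.16 in R 4.3.3 (TMM scaling, filterByExpr, robust quasi-likelihood F-test, two-sided) with group and sex over all 13 libraries. Sex within controls was fitted on the 6 controls. P-values were adjusted by Benjamini-Hochberg over all genes tested, with a threshold of 0.05, and standard errors were taken from the F statistic. Alternatives were DESeq2 1.42.0, limma-voom (limma 3.58.1), other scalings, filters and samples, each library left out, and 2 libraries left out together, the last chosen after seeing the data.

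The members and gene lists were chosen with earlier results of these data known. Per-library values are given for Ppara, Cpt1a, Fgf21, Bdh1 and Pdk4, for the other 10 members with the smallest adjusted p in depleted livers and the other 5 after hepatectomy, and for near-identical pairs. Those of Slc27a2, Slc25a20, Acadm, Hadhb and Vnn1 were added after their values were seen. Each further list names at most 4 genes, those with the largest changes past the threshold, besides Acat1 and Oxct1. Some genes of the lists are not reported here by name.

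Within groups, pairs of libraries differed by more than counting noise (lowest median chi-square per gene 4.60, 6.29 and 13.37 in control, depleted and hepatectomised livers, against 0.45 for a repeated library), so each counted as 1 replicate. Once sex was taken out, deviations of same-numbered libraries had a mean correlation of 0.12 between control and depleted livers (-0.02 for other pairs), -0.05 between control and hepatectomised livers (0.01) and 0.16 between depleted and hepatectomised livers (-0.05, and 0.04 for the lowest same-numbered pair). Not every pair was over 0.1 in any of these, so numbers were not taken as pairs. With sex left in, the 3 same-numbered pairs of control and hepatectomised livers, each of 1 sex, ran from 0.11 to 0.52.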

Additional observations from a re-analysis of the deposited data

Results flagged for a closer look

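Of 60 groups of 4 or 6 libraries (30 members in control and in depleted livers), 6 held a library whose gap to its nearest neighbour was too large a share of the group's range by Dixon's test, where chance gives about 3. Control 6 was the high one in Slc25a20 (132 CPM) and in Decr1 (293 CPM), and control 4 in Acot1 (20.9 CPM). Among depleted livers, liver 4 was high in Acaa1b (139.9 CPM), liver 3 low in Acot2 (2.99 CPM) and liver 1 low in Eci1 (30.6 CPM). Control 6 and depleted liver 4 are the libraries that also stood apart by cell markers. The fall of Decr1, Eci1, Acaa1b and Acot1 in depleted livers passed the test without each of these libraries in turn.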

How the results depend on the processing

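The fall of the members in depleted livers was stable in the settings tried, with 20 to 22 calls in every alternative, 21 to 22 when 1 library was left out, and 20 with the replicate number as a block. The count after hepatectomy was not. It was 6 with DESeq2, 1 with the replicate block, 0 when control 6 and hepatectomised liver 2 were left out together, and from 0 to 4 when 1 library was left out. The median log2 fold change of the members there ran from -0.03 (without hepatectomised liver 2) to 0.15 when 1 library was left out, and was -0.15 with library size alone. Depleted against hepatectomised livers gave 14 calls with library size alone (median of all genes 0.27), 25 with the replicate block and 20 to 26 without 1 library. The sex comparison gave 2 calls with DESeq2.

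Single members were refitted where the text names them or they were called, and among those signs turned in 3 uncalled values. For Pdk4 in depleted livers, the log2 fold change was 0.0082 with library size alone and 0.11 without control 6 and depleted liver 4. Among female libraries alone it was -0.96. It ran from -0.77 to 0.34 when 1 library was left out, being above 0 without control 4 (0.34), depleted liver 2 (0.04) or depleted liver 4 (0.24). For Fgf21 in depleted livers it ran from -0.38, without depleted liver 4, to 1.15 when 1 library was left out. For Cpt1a after hepatectomy it ran from -0.0030, without hepatectomised liver 2, to 0.49, and it was -0.014 without that liver and control 6. The cause was not tested. Hadh alone among the 21 calls in depleted livers was lost in an alternative, the replicate block or female libraries alone. The check above did not show that replicate numbers pair the libraries. With 3 or 4 same-numbered pairs per comparison, it cannot exclude pairing. At 3 counts per library the depth limits Fgf21 alone among the members (depleted liver 2 and, nearest above it, control 5).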

Other observations

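Among the controls, 4 members known as PPAR-alpha targets were highest in the same liver. Control 4, a female liver, was the highest of the 6 in Pdk4 (10.7 CPM, against 1.90 to 5.78 CPM in the other 5), Acot1 (20.9 CPM, against 2.67 to 8.64 CPM), Acot2 (6.47 CPM, against 1.07 to 4.70 CPM) and Vnn1 (52.6 CPM, against 0.911 to 31.5 CPM). The same liver was the lowest control in Acaa1b (302 CPM), Acaa1a (136 CPM), Cpt1a (408 CPM) and Slc27a2 (937 CPM). Known PPAR-alpha targets were thus among its lowest members too. In control 1, by contrast, Vnn1 stood at 0.911 CPM and Pdk4 at 1.90 CPM, the lowest of the group in both. Over the 30 members, control 4 was the highest control in 7, against 18.2% of all genes, and the lowest in 4, against 17.7%. Its ranks among the members were thus near those among all genes. The split of reads between Acot1 and Acot2 is uncertain, so they may not count as separate cases. The genes named here were picked after their values were seen, feeding is not given in the sources used here, and no test was run.

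Acaa1a and Acaa1b changed their balance. Acaa1b had more reads than Acaa1a in every control and hepatectomised liver, and fewer in depleted livers 1, 2 and 3, where it stood at 16.99, 32.7 and 14.5 CPM beside 86.5, 97.3 and 117 CPM for Acaa1a. Depleted liver 4, the one that kept the most stellate signal, had 139.9 CPM of Acaa1b and 115 CPM of Acaa1a. Over the 30 members, it was the highest depleted liver in 8, against 37.5% of all genes, and the lowest in 6, against 31.0%. A link between stellate signal and the members was not tested. The thiolases share 50-base stretches in 30.5% of the windows of Acaa1b, and how shared reads were assigned is not given in the sources used here.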
